A study of Homo sapiens with 2 samples.

Results

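The 45 genes described here carry out fatty acid synthesis, fatty acid oxidation and the storage of fat as triglyceride. They were chosen by name and read from the transcript tables of 2 T47D libraries. The tables list 25240 genes in all. Of the 45 names, 44 occur in the tables, and ECI1 was found under its older symbol DCI through its RefSeq transcripts. T47D is a human luminal A breast cancer cell line. One library (shRON) came from cells carrying a short hairpin against RON, the receptor tyrosine kinase encoded by MST1R, and the other (shNT) from cells carrying a non-targeting hairpin. Both cultures were transduced, selected with puromycin at 5 ug/mL and then kept at 1 ug/mL, in high-glucose medium with 10% serum. Total RNA was extracted with TRIZOL and made into Illumina TruSeq libraries. There was 1 library per group, so each difference describes these 2 libraries, with no replicate check, no p-value and no standard error. The number of hairpin sequences and of clones in each culture is not stated, and the shNT table is named as wild type although its label gives a non-targeting hairpin.

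Cells build fatty acids in the cytosol from acetyl-CoA. ATP citrate lyase (ACLY) makes acetyl-CoA from citrate, acetyl-CoA carboxylase (ACACA) makes malonyl-CoA, and fatty acid synthase (FASN) joins these units into palmitate, which desaturases and elongases then modify. Acyl-CoA synthetases activate fatty acids, the carnitine palmitoyltransferases carry them into mitochondria, and a cycle of dehydrogenases, hydratases and thiolases shortens them. Fatty acids not used in these ways are esterified to triglyceride and kept in lipid droplets. The transcription factors SREBP-1 (from SREBF1) and ChREBP (from MLXIPL) are known activators of the synthesis genes, and breast cancer cells commonly express those genes at high levels.

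Values are FPKM, fragment numbers scaled to transcript length and to the library's total, summed over the transcripts of a gene. They rest on an estimated 11308939 fragments in shRON and 11726954 in shNT. The log2 ratio compares shRON with shNT after 1 was added to each FPKM value, which makes differences of weakly expressed genes look smaller than they are. A gene was counted as measured where either library reached 1 FPKM, which held for 12482 genes, and as higher or lower at 1.5-fold on this scale. Intervals beside an FPKM ratio are approximate 95% Clopper-Pearson intervals on estimated fragments and cover counting error only. MST1R, the hairpin's target, stood at 9.10 FPKM in shRON and 12.1 FPKM in shNT, an FPKM ratio of 0.749 (0.674 to 0.832). Its log2 ratio of -0.38 fell short of 1.5-fold. Both libraries carried the luminal keratin transcripts at high levels, with KRT8 at 2634 FPKM in shRON and 3839 FPKM in shNT. Of the 10 luminal markers, 0 were higher, against 9.95% of all measured genes. Those past 1.5-fold lower, against 8.84% of all, were the oestrogen and progesterone receptor genes ESR1 and PGR. Of the 10 log2 ratios, 5 were below 0 and 5 above it, those of GATA3, FOXA1, EPCAM, XBP1 and TFF1. ESR1 was at 23.7 FPKM in shRON and 36.7 FPKM in shNT, and PGR at 35.1 FPKM in shRON and 76.7 FPKM in shNT. The summed luminal list was 7085 FPKM in shRON and 9250 FPKM in shNT. Most of it came from KRT8, KRT19 and KRT18, which had less FPKM in shRON but stayed under 1.5-fold. KRT19 was at 2079 FPKM in shRON and 2719 FPKM in shNT, and KRT18 at 1113 FPKM in shRON and 1465 FPKM in shNT. Of the 6 fibroblast markers, COL3A1 was higher, at 1.53 FPKM in shRON and 0.0103 FPKM in shNT. It reached 1 FPKM in shRON alone. DCN, LUM, PDGFRA and COL1A2 stayed at or under 0.125 FPKM. The summed fibroblast list was 5.86 FPKM in shRON and 4.14 FPKM in shNT, most of it COL1A1. None of the 6 immune and 4 endothelial markers reached 1 FPKM, and PTPRC, CD3E, VWF and KDR were listed at 0 in both. The part of these marker differences in the lipid gene values was not tested. Of the 8 adipocyte markers, LEP and CIDEC were listed at 0 in both libraries and ADIPOQ, PLIN1 and FABP4 stayed at or under 0.312 FPKM. The summed adipocyte list was 29.4 FPKM in shRON and 30.3 FPKM in shNT, most of it from ADIPOR2, at 25.8 FPKM in each.

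Synthesis and desaturation genes past 1.5-fold were more often lower than higher in the shRON library, oxidation genes were as often lower as higher, and both storage genes past that size were higher. Of 14 measured synthesis and desaturation members out of 16, 5 were at least 1.5-fold lower and 2 higher. In bulk RNA, fewer cells with a transcript and less of it per cell cannot be told apart. Among all measured genes, 8.84% were lower and 9.95% higher by that size. The median log2 ratio of the 14 was -0.30, against 0.04 over all measured genes, and 11 of the 14 ratios were below 0, against 46.1% of all. Of 13 measured oxidation members out of 14, 2 were lower and 2 higher, with a median of 0.02. The lower ones, ACADS and ACOX2, were weakly expressed, and ACOX2 passed the filter on low values through shNT alone. With a filter of 5 FPKM, 0 oxidation members were lower and 2 higher. Of 8 measured storage and lipolysis members out of 9, 0 were lower and 2 higher, and 6 stayed under 1.5-fold. The storage median was 0.30, or 0.13 with regional medians subtracted, and 6 of the 8 ratios were above 0, against 53.9% of all measured genes. The 3 measured acyl-CoA synthetases held 1 that was higher, and of the pair of uptake genes only CD36 was measured and was higher. In all, 39 of the 45 genes passed the filter on low values. The other 6, ACACB, SCD5, ACSL5, ACADL, LIPE and FABP5, stayed at or under 0.271 FPKM in both libraries.

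**Figure D1:**
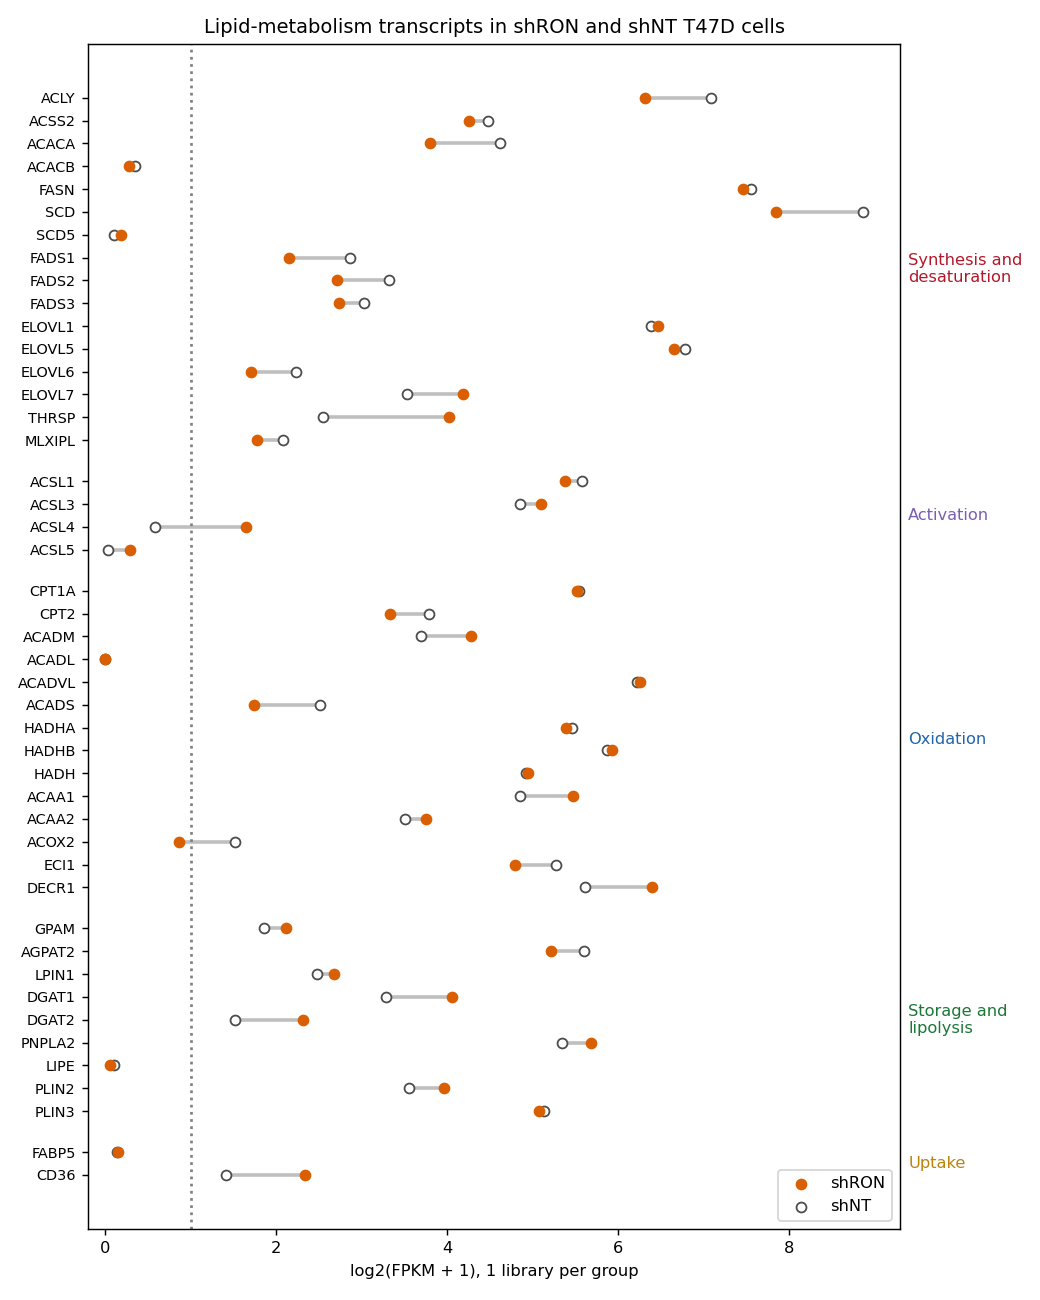
Level of each of the 45 genes as log2(FPKM + 1), with filled dots for shRON and open dots for shNT and 1 library per group. The dotted line marks 1 FPKM. SCD stands highest in both libraries, at 230.2 FPKM in shRON and 467 FPKM in shNT, and 6 genes lie left of the line in both.

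**Figure D2:**
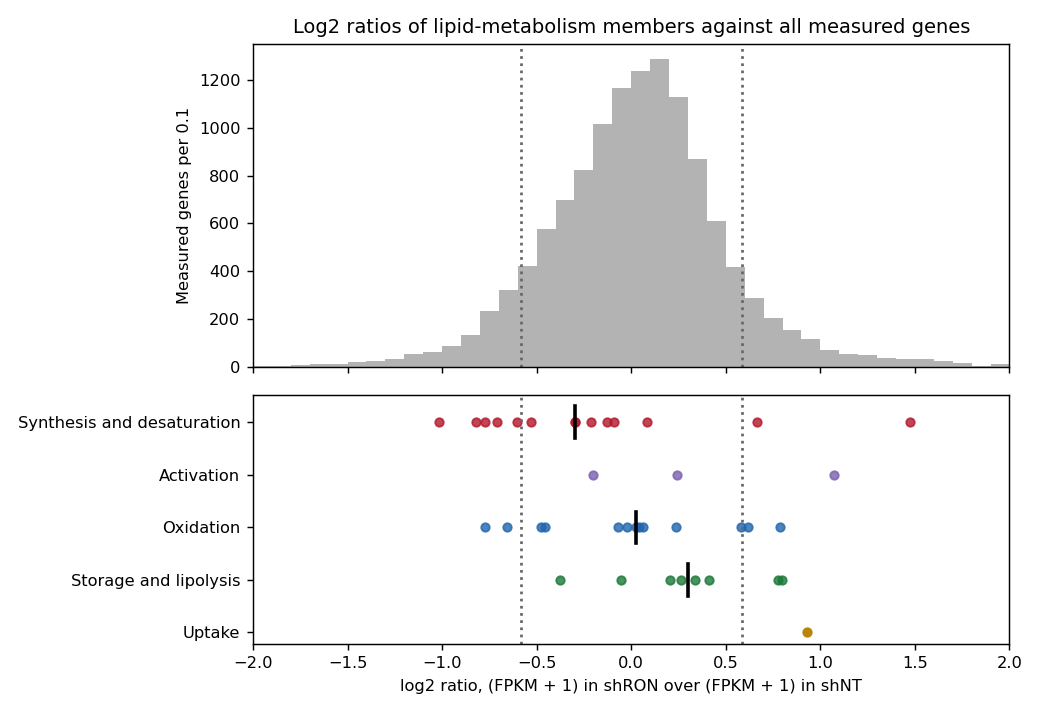
The upper panel counts measured genes in steps of 0.1 of the log2 ratio of shRON over shNT, drawn between -2 and 2. The lower panel gives the measured members of each role as dots, with black bars at the medians of -0.30 for synthesis, 0.02 for oxidation and 0.30 for storage. Dotted lines mark 1.5-fold.

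Summed over the 16 synthesis and desaturation genes, shRON held 756 FPKM and shNT 1071 FPKM, a sum 29.4% lower in shRON. Much of this lay in 1 gene, and without SCD the sums were 525 FPKM in shRON and 604 FPKM in shNT. The summed oxidation genes stood at 448 FPKM in shRON and 404 FPKM in shNT, and were thus 10.9% higher in shRON. Most of that lay in DECR1, and without it the sums were 365 FPKM in shRON and 356 FPKM in shNT, 2.32% higher in shRON. The summed storage and lipolysis genes were 8.38% higher in shRON, at 163 FPKM in shRON and 150 FPKM in shNT. The largest higher difference in FPKM lay in the lipase gene PNPLA2, at 50.4 FPKM in shRON and 39.8 FPKM in shNT. The largest lower one lay in AGPAT2, at 36.3 FPKM in shRON and 47.5 FPKM in shNT.

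At the entry to synthesis, ACLY stood at 78.7 FPKM in shRON and 135 FPKM in shNT. Its log2 ratio was -0.77 and its FPKM ratio 0.583 (interval 0.563 to 0.604). ACACA, which makes malonyl-CoA, was at 13.0 FPKM in shRON and 23.6 FPKM in shNT, a log2 ratio of -0.82 and an FPKM ratio of 0.549 (0.518 to 0.581). ACLY and ACACA, both cytosolic supply steps, were thus lower in transcript level by a similar factor. FASN, the enzyme that follows them, stood close between libraries, at 176 FPKM in shRON and 187 FPKM in shNT, with a log2 ratio of -0.09 and an FPKM ratio of 0.940 (0.922 to 0.958). ACSS2, which makes acetyl-CoA from acetate in place of citrate, was at 18.2 FPKM in shRON and 21.2 FPKM in shNT, a log2 ratio of -0.21. The second carboxylase gene, ACACB, whose product sits at mitochondria and restrains fatty acid import, was at 0.215 FPKM in shRON and 0.271 FPKM in shNT, so ACACA supplied nearly all carboxylase transcript in both libraries.

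Of the desaturase genes, SCD, FADS1 and FADS2 were at least 1.5-fold lower in shRON, while FADS3 fell short of that size and SCD5 was nearly undetected. SCD, which puts the first double bond into stearoyl- and palmitoyl-CoA, had the highest level of all 45 genes, at 230.2 FPKM in shRON and 467 FPKM in shNT. On the FPKM + 1 scale its log2 ratio of -1.02 lay just past 2-fold lower, where 2.17% of all measured genes lay. It was -0.96 on the TPM scale and -0.86 with the expression trend subtracted. With the median of the other genes within 5 Mb subtracted, it was -0.53, short of 1.5-fold. The FPKM ratio was 0.493 (0.484 to 0.502), from an estimated 18202 fragments in shRON and 37815 in shNT. The SCD paralogue SCD5 was at 0.131 FPKM in shRON and 0.0755 FPKM in shNT. FADS1 and FADS2 encode the delta-5 and delta-6 desaturases that make polyunsaturated fatty acids, and they lie side by side on chromosome 11 with FADS3. FADS1 was at 3.45 FPKM in shRON and 6.28 FPKM in shNT (log2 ratio -0.71), and FADS2 at 5.55 FPKM in shRON and 8.95 FPKM in shNT (log2 ratio -0.60). FADS3 differed less, at 5.63 FPKM in shRON and 7.15 FPKM in shNT, a log2 ratio of -0.30. The median ratio of the other genes within 5 Mb of this cluster was 0.05, so the lower values were not shared by the surrounding region.

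Promoter windows are shown for SCD and ACLY, the most abundant of the lower synthesis genes, and for THRSP, the synthesis gene with the highest ratio on the FPKM + 1 scale. Each runs from 250 bases before to 50 bases after the gene's start in RefSeq (GRCh38.p14), 5′ to 3′ on the gene's strand. Capitals mark CCAAT and the GC box GGGCGG or their reverse complements, 2 motifs found in many promoters. The windows are GRCh38.p14 chr10:100346983-100347282 on the plus strand for SCD, chr17:41918973-41919272 on the minus strand for ACLY and chr11:78063611-78063910 on the plus strand for THRSP.
SCD: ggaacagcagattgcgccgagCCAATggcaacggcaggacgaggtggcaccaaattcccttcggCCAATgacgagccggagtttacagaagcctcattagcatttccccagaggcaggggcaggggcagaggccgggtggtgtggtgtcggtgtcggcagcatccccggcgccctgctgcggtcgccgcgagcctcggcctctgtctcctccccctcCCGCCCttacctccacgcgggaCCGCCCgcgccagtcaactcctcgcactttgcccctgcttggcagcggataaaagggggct
ACLY: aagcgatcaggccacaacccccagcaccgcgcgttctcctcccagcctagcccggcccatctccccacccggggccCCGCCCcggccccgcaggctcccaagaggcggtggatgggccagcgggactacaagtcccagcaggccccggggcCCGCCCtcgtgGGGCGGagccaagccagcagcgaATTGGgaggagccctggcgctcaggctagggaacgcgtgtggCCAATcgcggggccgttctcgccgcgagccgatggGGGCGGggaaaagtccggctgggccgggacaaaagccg
THRSP: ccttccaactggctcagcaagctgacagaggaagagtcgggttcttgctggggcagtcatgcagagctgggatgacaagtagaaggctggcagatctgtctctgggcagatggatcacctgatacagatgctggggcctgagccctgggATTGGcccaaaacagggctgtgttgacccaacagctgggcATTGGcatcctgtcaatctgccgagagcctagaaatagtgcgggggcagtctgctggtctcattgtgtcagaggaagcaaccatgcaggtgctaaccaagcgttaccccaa

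Of the 45 genes, 38 matched an entry of the promoter table, all but FASN, ACAA1, ACOX2, DECR1, DGAT1, DGAT2 and FABP5. Motifs were searched on both strands. CCAAT occurred in 8 of 15 synthesis promoters, in 1 of 11 oxidation promoters and in 3 of 7 storage promoters, against 34.6% of all 35116 promoters of this length. GGGCGG occurred in 11 of 15, 7 of 11 and 6 of 7 of those promoters, against 45% of all. In the printed windows both SCD and ACLY hold both motifs, while THRSP holds CCAAT alone. The consensus sterol regulatory element, a site SREBP proteins are known to bind, was in 0 of the 38 windows and in 0.0456% of all promoters. A shorter form with 1 free position, TCACNCCAC, was in 1 of the 38, PNPLA2, and in 1.13% of all. The E-box CACGTG was in ELOVL5 and PLIN2 (7.26% of all promoters), and the consensus DR1 repeat, to which PPAR receptors bind, in 0 of the 38 (0.0228% of all). These matches describe letters in the windows only.

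Of the 4 elongase genes among the members, ELOVL7 alone passed 1.5-fold. ELOVL1 and ELOVL5, which extend saturated and polyunsaturated chains, were abundant and close between libraries. ELOVL1 was at 87.5 FPKM in shRON and 82.7 FPKM in shNT (log2 ratio 0.08), and ELOVL5 at 100.1 FPKM in shRON and 109 FPKM in shNT (-0.13). ELOVL6, which extends palmitate to stearate, the substrate of SCD, was at 2.26 FPKM in shRON and 3.70 FPKM in shNT. Its log2 ratio of -0.53 fell short of 1.5-fold on the FPKM + 1 scale, and its FPKM ratio was 0.610 (0.475 to 0.781). ELOVL7 was at 17.3 FPKM in shRON and 10.5 FPKM in shNT, a log2 ratio of 0.66.

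THRSP, which encodes the lipogenic nuclear protein Spot 14, had the highest ratio of the 39 measured genes on the FPKM + 1 scale. It stood at 15.3 FPKM in shRON and 4.86 FPKM in shNT, a log2 ratio of 1.47 and an FPKM ratio of 3.14 (2.44 to 4.07). Without the added 1, the weakly expressed ACSL4 had a higher FPKM ratio. The end of the gene at 77779397 on chromosome 11 (hg19) overlaps that of NDUFC2, which runs on the opposite strand, by 2 bases. NDUFC2 was at 49.9 FPKM in shRON and 51.1 FPKM in shNT, a log2 ratio of -0.03. The labels do not say whether the library kit kept strand, so reads of the pair near that end cannot be told apart. MLXIPL, the gene for ChREBP, was low in both, at 2.43 FPKM in shRON and 3.21 FPKM in shNT.

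**Figure D3:**
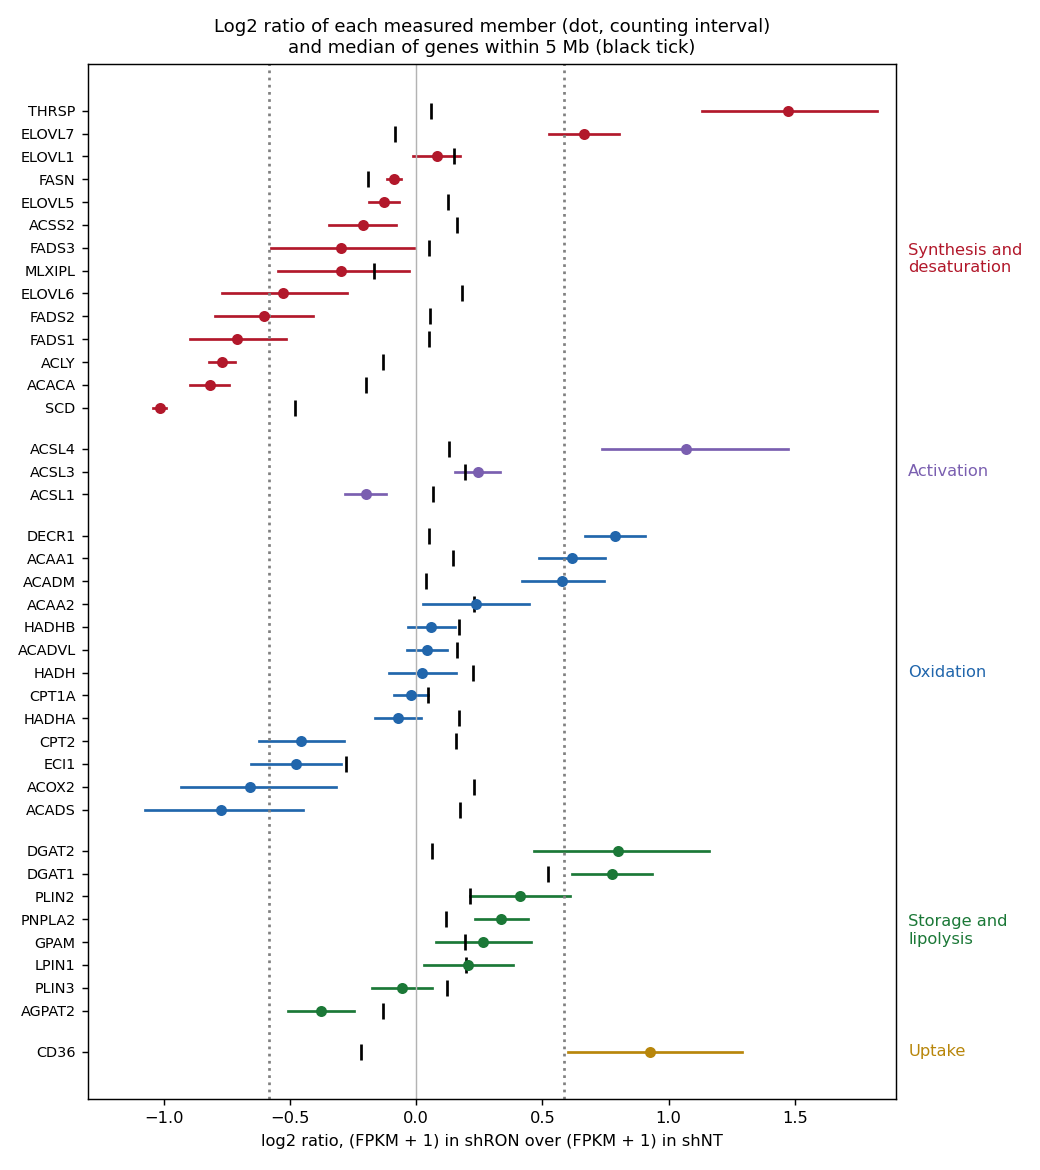
Log2 ratio of shRON over shNT for the 39 measured members, by role, as dots with approximate 95% counting intervals. Black ticks give the median ratio of the other measured genes within 5 Mb, and dotted lines mark 1.5-fold. SCD, ACACA, ACLY, FADS1 and FADS2 lie left of the lower line, while THRSP at 1.47 lies farthest right.

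The transcripts of ACLY shifted in composition as well as in level. The tables hold a pair of ACLY transcripts that differ by 30 bases. The shorter, NM_198830, was at 1.23 FPKM in shRON and 10.5 FPKM in shNT, which is 1.57% and 7.80% of the gene's FPKM in shRON and shNT. The longer, NM_001096, was at 77.4 FPKM in shRON and 124 FPKM in shNT. Both forms were therefore lower in shRON, the shorter one by more. In the GENCODE annotation of GRCh37, 1 exon of ACLY has the length of this difference, exon 14 of 29 of the transcript ACLY-201. It lies at chr17:40052873-40052902 on the minus strand. It is shown in capitals with 15 bases of the neighbouring exons on each side, as the exon that could set the tabled transcripts apart.
ACLY exon 14: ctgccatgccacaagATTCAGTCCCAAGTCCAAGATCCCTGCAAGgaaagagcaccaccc

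Cufflinks divides reads among transcripts by likelihood, and with only 30 bases of difference these shares carry an error that the fragment estimates do not cover. ACACA, in contrast, kept a similar composition. Its main transcript, NM_198836, made up 88.0% of ACACA FPKM in shRON and 89.4% in shNT. It was at 11.4 FPKM in shRON and 21.1 FPKM in shNT. A pair of minor transcripts start farther upstream, at 35766902, and they differed in direction. NM_198834 was at 1.01 FPKM in shRON and 1.96 FPKM in shNT, and NM_198839 at 0.230 FPKM in shRON and 0.0722 FPKM in shNT, from an estimated 36 and 11 fragments in shRON and shNT. Of 17 measured members with several transcripts, 14 had no transcript whose share differed by 5 percentage points or more. The other 3 were ACLY, ELOVL6 and CD36. In ELOVL6 the transcript NM_001130721 made up 73.4% in shRON and 88.3% in shNT, from an estimated 76 and 156 fragments in shRON and shNT.

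**Figure D4:**
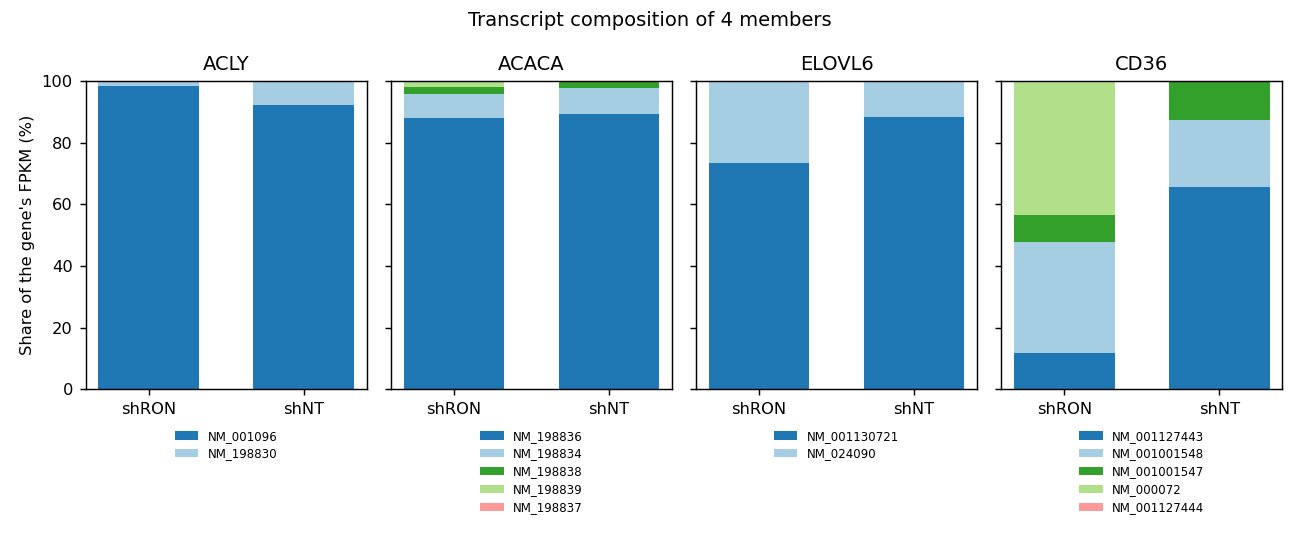
Share of each transcript in the FPKM of its gene (%), with shRON left of shNT, 1 library per bar. The short ACLY transcript NM_198830 makes up 1.57% in shRON and 7.80% in shNT, ACACA differs little, and CD36 is led by different transcripts in the libraries.

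Among the acyl-CoA synthetases, which activate fatty acids for every later use, ACSL4 stood apart. This isozyme prefers arachidonic acid, and its transcript was at 2.13 FPKM in shRON and 0.492 FPKM in shNT, from an estimated 158 and 37 fragments in shRON and shNT. The log2 ratio was 1.07, the FPKM ratio 4.34 (3.01 to 6.38), and ACSL4 passed the filter on low values through shRON alone. At 2-fold or more it joined 3.32% of all measured genes. The abundant isozymes differed little. ACSL1 was at 40.8 FPKM in shRON and 47.01 FPKM in shNT (log2 ratio -0.20), and ACSL3 at 33.2 FPKM in shRON and 27.9 FPKM in shNT (0.24). ACSL5 was nearly undetected, at 0.224 FPKM in shRON and 0.0178 FPKM in shNT.

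Of the 13 measured oxidation genes, 9 stayed under 1.5-fold. CPT1A, the gate of fatty acid entry into mitochondria, was at 45.01 FPKM in shRON and 45.7 FPKM in shNT, with an FPKM ratio of 0.985 (0.940 to 1.03). CPT2, its inner-membrane partner, was at 9.05 FPKM in shRON and 12.8 FPKM in shNT, a log2 ratio of -0.46. ACADVL, the first dehydrogenase for long chains, was at 75.7 FPKM in shRON and 73.5 FPKM in shNT. HADHA and HADHB, the subunits of the trifunctional protein, are read from a shared start region on opposite strands. HADHA was at 41.0 FPKM in shRON and 43.2 FPKM in shNT, and HADHB at 59.9 FPKM in shRON and 57.4 FPKM in shNT. HADH, the hydroxyacyl-CoA dehydrogenase for shorter chains, was at 29.8 FPKM in shRON and 29.3 FPKM in shNT. The log2 ratios of CPT1A, ACADVL, HADHA, HADHB and HADH, the 5 closest to 0, lay between -0.07 and 0.06. ACAA2, the mitochondrial thiolase, was at 12.4 FPKM in shRON and 10.4 FPKM in shNT (0.24).

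Of the acyl-CoA dehydrogenase genes among the members, ACADS alone passed 1.5-fold. ACADM, the medium-chain dehydrogenase, was at 18.4 FPKM in shRON and 12.0 FPKM in shNT, and its log2 ratio of 0.58 fell just short of 1.5-fold. ACADS, the short-chain dehydrogenase, was at 2.35 FPKM in shRON and 4.73 FPKM in shNT, which gave a log2 ratio of -0.77. Only 64 fragments in shRON and 134 in shNT were estimated for it. ACADL, for long chains, was listed at 0 in both libraries.

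Of the auxiliary enzymes for unsaturated chains, DECR1 passed 1.5-fold and ECI1 did not. DECR1, the dienoyl-CoA reductase that some unsaturated fatty acids need to pass through the cycle, was at 83.7 FPKM in shRON and 48.0 FPKM in shNT. Its log2 ratio of 0.79 was the highest among the oxidation genes, with an FPKM ratio of 1.74 (1.60 to 1.89). ECI1, the enoyl-CoA isomerase that handles other double bonds, was at 26.7 FPKM in shRON and 37.6 FPKM in shNT, a log2 ratio of -0.48, short of 1.5-fold, and its regional median was -0.28. The peroxisomal members lay on both sides. The thiolase gene ACAA1 was at 43.4 FPKM in shRON and 28.0 FPKM in shNT (log2 ratio 0.62), while ACOX2, an oxidase for branched chains and bile acid intermediates, was at 0.815 FPKM in shRON and 1.87 FPKM in shNT (-0.66). ACOX2 passed the filter on low values through shNT alone.

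Both genes of the last step of triglyceride synthesis were higher in shRON. DGAT2 was at 3.97 FPKM in shRON and 1.86 FPKM in shNT, a log2 ratio of 0.80 and an FPKM ratio of 2.14 (1.59 to 2.90). DGAT1 was at 15.7 FPKM in shRON and 8.74 FPKM in shNT, a log2 ratio of 0.78 and an FPKM ratio of 1.79 (1.60 to 2.01). The pair differed in their surroundings. Genes within 5 Mb of DGAT1 on chromosome 8 had a median log2 ratio of 0.52, and DGAT1 relative to them was at 0.25. Its neighbour HSF1, whose locus overlaps DGAT1 by 139 bases, was at 53.0 FPKM in shRON and 36.5 FPKM in shNT. Genes around DGAT2 on chromosome 11 had a median of 0.06, and DGAT2 relative to them was at 0.74. What part the region has in the DGAT1 difference was not tested.

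The earlier steps of glycerolipid synthesis were closer between libraries. GPAM, which starts the pathway at the mitochondrial surface, was at 3.34 FPKM in shRON and 2.62 FPKM in shNT (log2 ratio 0.26), and LPIN1, a phosphatidate phosphatase, at 5.39 FPKM in shRON and 4.55 FPKM in shNT (0.20). AGPAT2, the second acyltransferase, had the lowest ratio of the measured storage genes, at 36.3 FPKM in shRON and 47.5 FPKM in shNT (-0.38). None of these 3 reached 1.5-fold. The lipid droplet coat gene PLIN2 was at 14.6 FPKM in shRON and 10.7 FPKM in shNT (0.41), and PLIN3 at 32.8 FPKM in shRON and 34.2 FPKM in shNT (-0.06). PNPLA2, which encodes the first lipase of triglyceride breakdown, was at 50.4 FPKM in shRON and 39.8 FPKM in shNT (0.34). The second lipase gene, LIPE, was at 0.0349 FPKM in shRON and 0.0683 FPKM in shNT.

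CD36, a surface receptor that takes up fatty acids, was at 4.07 FPKM in shRON and 1.66 FPKM in shNT. The log2 ratio was 0.93 and the FPKM ratio 2.45 (1.83 to 3.31), from an estimated 178 and 63 fragments in shRON and shNT. Genes within 5 Mb had a median of -0.22, so the higher value was not shared by the region. The higher values lay mostly in a pair of transcripts that share a start at 80267832. NM_000072 was at 1.77 FPKM in shRON and 0.00273 FPKM in shNT, and NM_001001548 at 1.46 FPKM in shRON and 0.362 FPKM in shNT. NM_001001547, which starts farthest upstream, differed less, at 0.352 FPKM in shRON and 0.208 FPKM in shNT. NM_001127443, with a start farther downstream, was at 0.483 FPKM in shRON and 1.09 FPKM in shNT. At these fragment numbers the division among CD36 transcripts is uncertain. FABP5, a cytosolic fatty acid binding protein gene with near-identical pseudogenes that can take its reads, was at 0.106 FPKM in shRON and 0.0997 FPKM in shNT.

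Position along the genome moved with some of these values. SCD lies on chromosome 10 (hg19 102106772 to 102124588) in a region whose other genes had a median log2 ratio of -0.48. Relative to them SCD was at -0.53. ACACA and ACLY lie on chromosome 17 with regional medians of -0.20 and -0.13, and FASN, on the same chromosome, with -0.19. After each gene's regional median was subtracted, 12 of the 15 members past 1.5-fold remained so, and SCD, ACAA1 and DGAT1 did not. ELOVL6 (-0.71) and CPT2 (-0.61), short of 1.5-fold before, were then past it on the lower side. Across the 39 measured members, the ratio and the regional median had a Pearson r of 0.31, a description over genes that share 2 libraries and, in places, a chromosome. The part of gene copy number in these differences was not tested.

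Other genes of these pathways were listed by role, with earlier results of these data known. Of 23 measured regulators out of 25, 2 (8.70%) were at least 1.5-fold higher and 0 lower, with a median of 0.09. Over all measured genes, 9.95% were higher and 8.84% lower by that size, with a median of 0.04. SREBF1, the gene for the activator of fatty acid synthesis genes, was at 86.6 FPKM in shRON and 52.7 FPKM in shNT, a log2 ratio of 0.70 and an FPKM ratio of 1.64 (1.58 to 1.71). The SREBF1 transcript was therefore higher in the library in which SCD, ACACA, ACLY, FADS1 and FADS2 were lower. Its locus overlaps RAI1. SREBF2, the paralogue that favours cholesterol genes, was at 37.8 FPKM in shRON and 38.4 FPKM in shNT. INSIG1, which retains SREBP precursors and is itself a target of SREBP, was at 37.4 FPKM in shRON and 54.8 FPKM in shNT (log2 ratio -0.54). USF1 was at 29.9 FPKM in shRON and 19.0 FPKM in shNT (0.62), and USF2 at 34.2 FPKM in shRON and 23.3 FPKM in shNT (0.53). Both encode E-box factors with a known role at lipogenic promoters.

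Of 18 measured further synthesis genes, 2 (11.1%) were lower and 1 (5.56%) higher, against 8.84% and 9.95% of all measured genes. Their median was -0.24, and 12 ratios were below 0 (66.7%), against 46.1% of all. DEGS1, the dihydroceramide desaturase, was at 119 FPKM in shRON and 48.4 FPKM in shNT (1.28). PTPLA, a dehydratase of chain elongation, was at 0.728 FPKM in shRON and 3.02 FPKM in shNT (-1.22). The elongase gene ELOVL2 was at 0.0358 FPKM in shRON and 1.04 FPKM in shNT (-0.98), and ELOVL4 at 3.65 FPKM in shRON and 2.26 FPKM in shNT (0.51). PTPLA and ELOVL2 passed the filter through shNT alone. Of 29 measured further oxidation genes, 3 (10.3%) were lower and 1 (3.45%) higher, with a median of 0.06. The acyl-CoA thioesterase gene ACOT7 was at 7.80 FPKM in shRON and 15.5 FPKM in shNT (-0.91), CRAT, the carnitine acetyltransferase, at 17.8 FPKM in shRON and 33.9 FPKM in shNT (-0.89), and ACAD9 at 16.1 FPKM in shRON and 25.1 FPKM in shNT (-0.61). CPT1B, the muscle form of CPT1, was at 8.19 FPKM in shRON and 4.38 FPKM in shNT (0.77), and the tables also list a readthrough transcript that shares its sequence.

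Of 13 measured further storage genes, 1 was lower and 1 higher, 7.69% each, with a median of 0.11. Over all measured genes, 8.84% were lower and 9.95% higher. MGLL, which completes triglyceride breakdown by cleaving monoglycerides, was at 0.352 FPKM in shRON and 3.34 FPKM in shNT, a log2 ratio of -1.68. This was the lowest ratio among the measured members and listed genes on the FPKM + 1 scale, while ELOVL2 had a lower FPKM ratio, at 0.034 against 0.106 for MGLL. MGLL passed the filter through shNT alone. HILPDA, a lipid droplet protein that inhibits PNPLA2, was at 99.0 FPKM in shRON and 63.1 FPKM in shNT (0.64). The acyltransferase genes AGPAT3 and AGPAT1 had ratios of 0.46 and 0.32. Of 7 measured further uptake and activation genes, FABP6 was higher, at 2.83 FPKM in shRON and 0.730 FPKM in shNT (1.15), passing the filter through shRON alone, and ACBD3 lower, at 18.4 FPKM in shRON and 30.5 FPKM in shNT (-0.70). SLC27A1, a fatty acid transport protein gene, was at 5.40 FPKM in shRON and 3.71 FPKM in shNT (0.44), and DBI, the acyl-CoA binding protein gene, at 344 FPKM in shRON and 293 FPKM in shNT (0.23).

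**Figure D5:**
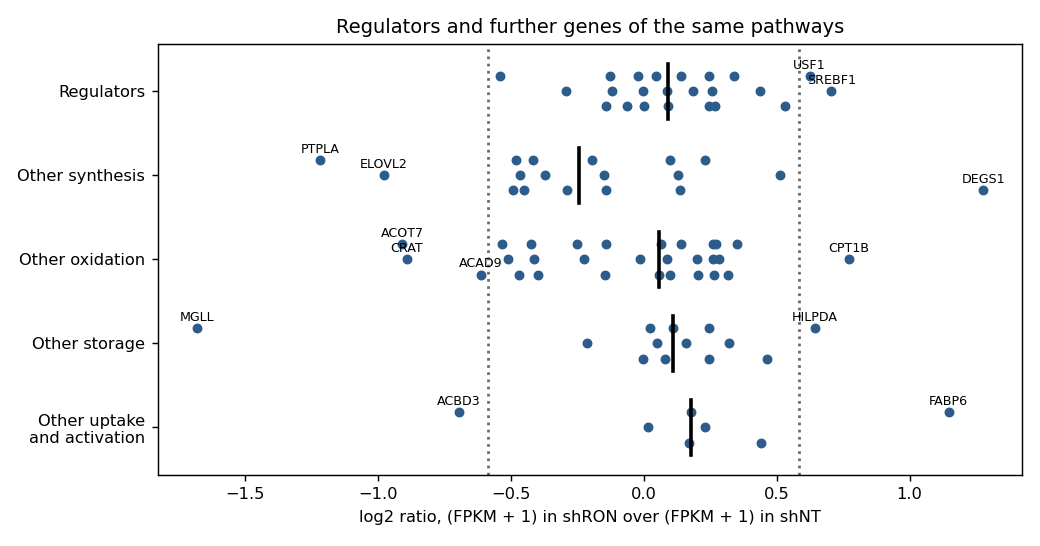
Log2 ratio of shRON over shNT for the measured genes of 5 further lists, as dots with black bars at the medians. Dotted lines mark 1.5-fold, and genes past it are named. The regulator median lies at 0.09 and that of further synthesis genes at -0.24, and MGLL at -1.68 lies farthest left.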

How the data were processed

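RNA from 1 shRON and 1 shNT library of T47D cells was compared. Per the file headers, the deposited tables have the layout of Cufflinks, with FPKM, coverage (read depth, a signal not divided by library size) and length for 37839 RefSeq transcripts. The build is hg19 per the submitters' processing notes, which also name DESeq without a role. Neither the aligner nor a version of Cufflinks is given in the sources used here, and no scaling between libraries is stated. The tables order transcripts differently and were joined by transcript identifier, and start coordinates, which the files count from 0, are given from 1.

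FPKM was summed per gene and small RNA genes were left out. Fragments were estimated as coverage times length divided by 245 bases per read pair in shRON and 247 in shNT, the medians of products between 150 and 325 bases in long single-transcript genes. These estimates are approximate. Regional medians needed 10 genes within 5 Mb. The calculation was tested on simulated data, with Python 3.11.15, pandas 2.3.3 and scipy 1.17.1. Groups were taken from the treatment labels. The members and lists were chosen with earlier results of these data known. All members are accounted for. Of the other lists, genes past 1.5-fold and the 4 largest ratios were chosen for naming, and SREBF2 was added after its values were seen. Alternatives covered the pseudocount, the filter, transcripts, scaling, region and expression trend.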

Additional observations from a re-analysis of the deposited data

How the results depend on the processing

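No test was possible with 1 library per group. No paired analysis was possible because each group has 1 library. Of the 15 members past 1.5-fold, 0 changed sign under any alternative that kept them. A changed pseudocount or filter cannot change a sign, and centring or the TPM scale moved the median of all genes too little to do so. The count therefore bears only on the alternatives for region, expression trend and choice of transcript. With a pseudocount of 5, 6 of the 15 stayed past 1.5-fold. Synthesis then had 3 lower and 1 higher, oxidation 0 lower and 1 higher, storage 1 higher, and all genes 465 lower and 518 higher. With a filter of 5 FPKM oxidation had 0 lower, storage 1 higher and all genes 798 higher. On the TPM scale, where 13897 genes passed the filter, 2057 were higher (14.8%) and 1311 lower (9.43%), and the median of all genes moved by 0.06. Centring on the median of all genes left 1 higher oxidation gene, and over all genes 1109 were higher and 1248 lower. With regional medians subtracted, the oxidation median was -0.12, with 3 lower and 1 higher oxidation gene, and storage had 1 higher. Over all genes with a regional median, 6.49% were then lower and 8.02% higher. Leaving out members that overlap a measured gene, an alternative chosen after seeing the data, left 1 higher synthesis and 1 higher storage gene. The synthesis median lay between -0.36 and -0.19 under all alternatives run, and the storage median between 0.13 and 0.38. Low genes such as ACOX2 (an estimated 27 fragments in shRON and 64 in shNT) are limited by depth, the abundant ones by the lack of replicates.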
